A study of Mus musculus with 5 samples.

Results

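Constitutive proteasome subunits were followed in Erbb2-transfected and parental NIH3T3 cells. They were taken as the genes whose symbols begin with Psma, Psmb, Psmc or Psmd followed by a number, without the interferon-inducible catalytic subunits Psmb8, Psmb9 and Psmb10, and only through probes annotated with 1 gene symbol. This gave 31 genes on 34 probes, of 9669 gene symbols on 11723 such probes and 20205 probes in all. The core particle accounted for 14 genes (Psma and Psmb) and the regulatory cap for 17 genes (Psmc and Psmd). The transfected cells were NIH3T3 mouse fibroblasts that constitutively overexpress the human receptor tyrosine kinase HER-2/NEU (ERBB2) from a cytomegalovirus promoter. They were set against the parental NIH3T3 line, grown in the same serum-containing medium. The labels name no empty-vector line and do not say whether the transfected line is 1 clone. Total RNA of both lines was hybridised together to each of 5 arrays of spotted cDNA, A1, A2 and A3 of preparation A and B1 and B2 of preparation B. Erbb2 cDNA carried Cy3 on A1, A2 and B1, and Cy5 on A3 and B2.

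The proteasome is the protease that degrades ubiquitin-tagged proteins in the cytosol and nucleus. Its barrel-shaped core is built of alpha rings, which gate the entry, and beta rings, which hold the catalytic threonines. The cap recognises ubiquitin chains, removes them, and unfolds the substrate with a ring of ATPases before threading it into the core. Because the subunits are assembled in fixed proportions, their genes are often regulated together in mammalian cells, in part through the transcription factor encoded by Nfe2l1.

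Values are given as the log2 of Erbb2-transfected over NIH3T3, so that 1 is a 2-fold difference. The direction is likely rather than settled, since it takes Cy5 as the numerator of the deposited ratios. Each array had been scaled by the authors to a median ratio of 1, so a change common to most genes cannot appear. In bulk RNA, a change in the level per cell and a change in the share of cells that express a gene cannot be told apart. Nothing in the labels says that the preparations were separate cultures, so p-values measure the spread between these samples, which may be technical. Arrays of the turned ratios correlated at r between 0.17 (A2 with B2) and 0.54 (A1 with A3) across probes. Values on an array were deposited for 5368 (A1) to 17463 (B1) probes.

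Of the 31 genes, 30 had a value on at least 1 array, and 18 had a value in both dye orientations of both preparations and were tested, 9 of the core and 9 of the cap. In limma's test over 4892 features, 0 of the 18 passed at an adjusted p under 0.05, where 6.79% of all features did. At an unadjusted p under 0.05 there were 4, Psma2, Psma6, Psmc2 and Psmd5, or 22.2%, beside 22.9% of all features. The tested members ranged from -0.53 (Psmd5) to 0.60 (Psmc2), a much narrower span than that of all features, -4.93 to 3.28. Their median absolute log2 ratio was 0.30, beside 0.25 over all features tested. The members thus lay no closer to 0 than the median feature, and none was among the features with large ratios. The smallest absolute log2 ratio of any feature that passed was 0.75, so ratios of the size found in the members were not called anywhere in this fit.

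The size that these arrays allow can be read from limma's 95% intervals, which are not adjusted for the number of genes. They lay between -1 and 1, less than a 2-fold difference either way, for 16 of 18 members and for 81.8% of all features. The exceptions were Psmc2, with an upper bound of 1.07, and Psmd2, with a lower bound of -1.02. The upper bound of Psma2 lay at the limit, at 1.00. These intervals rest on the spread between preparation means, in which dye orientations were averaged first. With 2 means per gene, limma drew the spread of each gene strongly towards that of all 4892 features. The standard error was 0.203 for Psmd4 and 0.233 for Psma1, although their SDs of preparation means were 0.005 and 0.54. The width of an interval is therefore largely not the spread of that gene itself. Without array B1, 9 of 18 members had intervals within these bounds, beside 54.8% of all features.

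**Figure D1:**
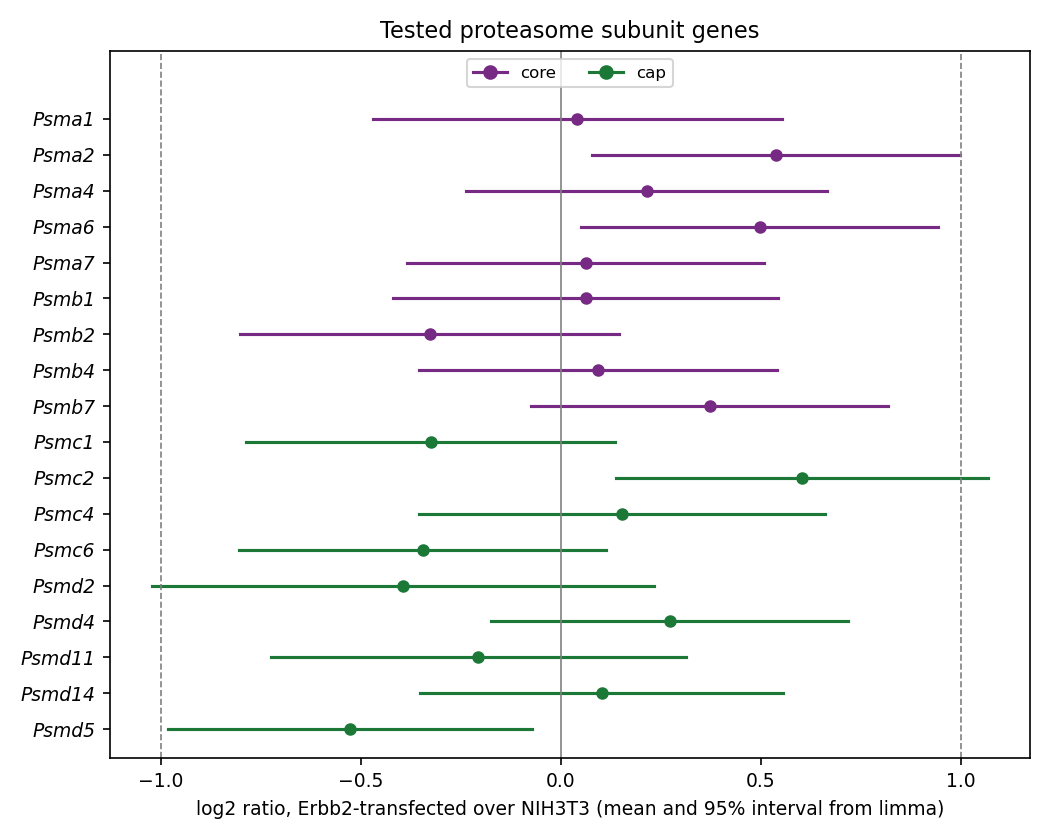
Log2 ratio of Erbb2-transfected over NIH3T3 cells (x axis) for the 18 tested members, core genes above and cap genes below. Points are means of 2 preparations, bars the 95% intervals from limma, and dashed lines mark -1 and 1. Of the 18 intervals, 16 lie between these lines, and none of the genes passed at an adjusted p under 0.05.

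Across the arrays, 5 of 18 members lay above 0 on all arrays that measured them (27.8%, beside 10.9% of all features) and 2 were below 0 on every one (11.1%, beside 13.4%). Those above 0 were Psma2, Psma4, Psma6, Psmb7 and Psmc2, of which 4 belong to the core. Those below were Psmc6 and Psmd5, both of the cap as taken by symbol. By counts of means, 8 of 9 core members and 4 of 9 cap members were above 0, beside 48.0% of all features. Of these core members, Psma1, Psma7 and Psmb1 had means below 0 without array A3. The median was 0.09 for the core and -0.21 for the cap, with -0.02 over all features. The cap set, taken by symbol, includes the assembly chaperone Psmd5 (-0.53), which is not retained in the finished cap. The other cap roles had medians of -0.09 (4 ATPases), -0.06 (2 scaffold and receptor genes) and -0.05 (2 lid genes). The sign of the cap median was not stable, at 0.16 without array A3 (11 cap genes) and 0.02 without B2 (10 cap genes). It was 0.08 when all 16 cap genes with a value were averaged over arrays. The core median kept its sign in these settings, at 0.05, 0.18 and 0.08. Members share the same arrays and are not replicates of each other.

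**Figure D2:**
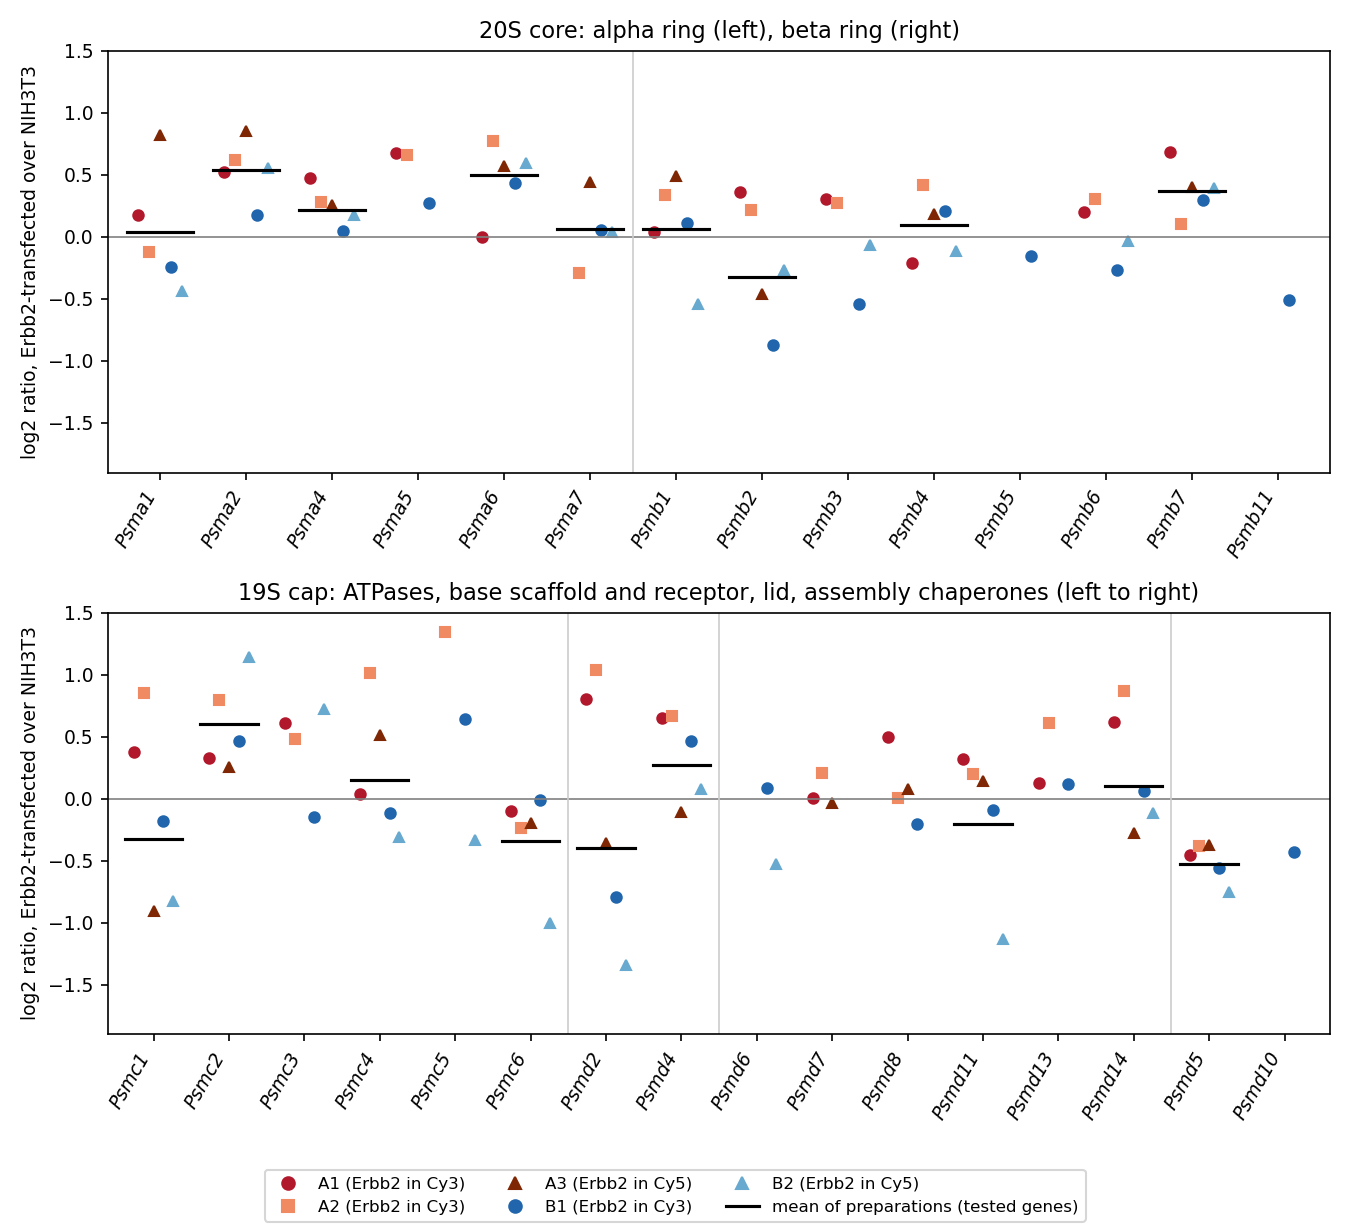
Log2 ratio of Erbb2-transfected over NIH3T3 cells (y axis) for the 30 members with a value, core genes in the upper panel and cap genes in the lower, with 1 symbol per array and a black line at the mean of preparations of tested genes. Psma2, Psma4, Psma6, Psmb7 and Psmc2 lie above 0 on every array, Psmc6 and Psmd5 below it on every array, and Psmd2 spans the widest range, -1.34 to 1.04.

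Promoter sequences of Psma2, Psmc2 and Psmd5 are given because these genes combine 1 sign on every array with the largest distances from 0. Each is the 250 bases before the start of its promoter entry, from RefSeq on GRCm38.p6, 5′ to 3′ on the strand of the gene. The annotated Psmd5 gene reaches position 34870965 on chromosome 2, so the last bases of its window lie inside it. Capitals mark matches, on either strand, to the CCAAT box (CCAAT, bound by NF-Y), the core of ETS factor sites (CCGGAAG) and the core of the antioxidant response element (TGACNNNGC, recognised by the factors encoded by Nfe2l1 and Nfe2l2). No match overlapped another in these windows. Psma2 lies on chromosome 13 (chr13:14612992-14613241, plus strand), Psmc2 on chromosome 5 (chr5:21785025-21785274, plus strand) and Psmd5 on chromosome 2 (chr2:34870963-34871212, minus strand).
Psma2: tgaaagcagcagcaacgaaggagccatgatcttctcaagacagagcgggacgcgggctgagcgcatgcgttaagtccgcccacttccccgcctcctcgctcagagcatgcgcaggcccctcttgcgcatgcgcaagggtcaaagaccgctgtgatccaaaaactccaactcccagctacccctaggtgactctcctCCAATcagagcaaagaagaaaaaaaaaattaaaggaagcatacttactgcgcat
Psmc2: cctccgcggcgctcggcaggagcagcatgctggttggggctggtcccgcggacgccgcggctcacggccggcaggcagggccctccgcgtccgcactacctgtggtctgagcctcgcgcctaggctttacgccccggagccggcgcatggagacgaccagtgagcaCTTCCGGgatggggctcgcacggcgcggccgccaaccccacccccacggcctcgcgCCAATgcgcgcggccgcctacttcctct
Psmd5: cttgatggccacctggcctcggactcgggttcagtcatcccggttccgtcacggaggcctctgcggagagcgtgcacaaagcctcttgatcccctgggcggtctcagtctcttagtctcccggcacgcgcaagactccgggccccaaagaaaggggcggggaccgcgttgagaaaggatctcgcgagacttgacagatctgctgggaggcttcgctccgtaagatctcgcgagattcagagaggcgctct

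Psma2 held 1 CCAAT match, 54 bases before the start. In the Psmc2 window a CCAAT match lay 28 bases and a reverse-strand CCGGAAG match 84 bases before the start, while the Psmd5 window held no match to these letters. Of the 31 members, 26 had promoter entries in the table, 28 in all. CCGGAAG was found in 9 of these 28 windows, or 32.1%, beside 6.91% of 32851 windows of the same length. It occurred in genes whose ratios pointed either way, such as Psmc2 and Psma6 above 0 and Psmc6 below. The 9 windows belong to 8 genes, as Psmc2 also had a match in a second entry, chr5:21786497-21786746. The Psma6 match lies in an entry inside the annotated gene, chr12:55398575-55398824. CCAAT was found in 39.3% of member windows and 33.9% of all, and TGACNNNGC in 10.7% and 10.2%. Base composition was not matched between these windows, and a match is a description of letters only.

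Among the alpha subunits, which form the outer rings of the core, all 5 tested genes had means above 0, and none passed. Without array A3, Psma1 and Psma7 had -0.16 and -0.12. Psma2 had 0.52, 0.62 and 0.86 on A1 to A3, and 0.17 and 0.56 on B1 and B2. It was above 0 throughout, with a mean of 0.54 ± 0.25 (SD of 2 preparations; limma adjusted p = 0.155). Psma6 had 0.00, 0.77 and 0.57 on the A arrays, and 0.43 and 0.60 on the B arrays. Its lowest value, on A1, was 0.001, and its mean was 0.50 ± 0.03 (adjusted p = 0.174). Psma4 was smaller and more even, with 0.48, 0.28 and 0.26 on the A arrays, and 0.05 and 0.17 on the B arrays, and a mean of 0.22 ± 0.15 (adjusted p = 0.582).

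Psma1 and Psma7 both had means near 0, with unequal spread. Psma1 had 0.17, -0.12 and 0.82 on A1 to A3, and -0.24 and -0.44 on B1 and B2, for a mean of 0.04 ± 0.54. Its A arrays all lay above its B arrays. Psma7, without a value on A1, had -0.29 on A2, 0.44 on A3, 0.06 on B1 and 0.04 on B2, for a mean of 0.06 ± 0.02. Its orientations differed in preparation A by more than its SD shows. Psma5, untested because it had no value on A3 or B2, had 0.67, 0.66 and 0.28 on A1, A2 and B1, all of the same dye orientation.

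The beta rings carry the catalytic subunits Psmb5, Psmb6 and Psmb7 beside structural ones. Psmb7, the subunit with trypsin-like activity, was the 1 catalytic gene tested, with 0.68, 0.10 and 0.41 on A1 to A3, and 0.30 and 0.39 on B1 and B2. All its values were above 0, with a mean of 0.37 ± 0.04 and an adjusted p of 0.311 in limma. Psmb6, with caspase-like activity, had 0.20 and 0.31 on A1 and A2, and -0.27 and -0.03 on B1 and B2. Psmb5, with chymotrypsin-like activity, had 1 value, -0.15 on B1. The catalytic genes therefore cannot be compared with each other over the same arrays.

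Among the structural beta subunits, Psmb2 had the one negative mean of the tested core genes, at -0.33 ± 0.34 (adjusted p = 0.404). Its values were 0.36, 0.22 and -0.46 on A1 to A3, and -0.87 and -0.26 on B1 and B2, so both signs occurred within preparation A. Psmb1 had 0.04, 0.34 and 0.49 on the A arrays, and 0.11 and -0.54 on the B arrays, with a mean of 0.06 ± 0.39. Psmb4 stayed close to 0, with -0.21, 0.41 and 0.19 on the A arrays, and 0.20 and -0.12 on the B arrays, and a mean of 0.09 ± 0.07. Neither showed 1 sign. Psmb3, untested, had 0.31 and 0.27 on A1 and A2, and -0.54 and -0.07 on B1 and B2. Psmb11, a catalytic subunit of the thymus that the selection by symbol includes, had -0.51 on B1 alone.

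In the cap, the ATPases Psmc1 to Psmc6 form the ring that unfolds substrates. Psmc2 had the highest mean of all tested members, 0.60 ± 0.28, or 1.52-fold (95% interval 1.10 to 2.10), with an adjusted p of 0.118. Its values were 0.33, 0.79 and 0.25 on A1 to A3, and 0.46 and 1.14 on B1 and B2. The 2 array values of the Cy5 orientation, 0.25 and 1.14, were its lowest and its highest. Psmc6 lay below 0 on all arrays, but mainly on 1 of them, with -0.10, -0.24 and -0.19 on the A arrays, and -0.01 and -1.01 on the B arrays. Its mean was -0.35 ± 0.23 (adjusted p = 0.360), and -0.10 without array B2.

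Psmc4 was above 0 on each A array, at 0.04, 1.01 and 0.51, and below 0 on each B array, at -0.11 and -0.31. Its mean was 0.15 ± 0.52 (adjusted p = 0.747). Psmc1 was split by dye orientation, with -0.91 and -0.82 on A3 and B2, against 0.38, 0.85 and -0.18 on A1, A2 and B1. The gene is an average of 2 probes that disagree. Taken alone, 1 probe had -1.65 and -1.59 on A3 and B2, against 0.65, 0.86 and -0.28 on A1, A2 and B1, and was called when each probe was tested by itself (log2 ratio -0.69, adjusted p = 0.044). The other had -0.16 and -0.06 on A3 and B2, against 0.11, 0.84 and -0.08 on the others, with a log2 ratio of 0.04. No direction is given for Psmc1 on that basis. Psmc3 had 0.61, 0.48, -0.15 and 0.73 on A1, A2, B1 and B2, and Psmc5 1.35, 0.64 and -0.33 on A2, B1 and B2; both were untested.

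Psmd2 is the scaffold subunit of the base that docks ubiquitin shuttle factors, and Psmd4 is a ubiquitin receptor. Psmd2 spread more than any other member, with 0.80, 1.04 and -0.36 on A1 to A3, and -0.79 and -1.34 on B1 and B2. Its mean was -0.39 ± 0.95 (adjusted p = 0.457). Another probe, annotated with both Psmd2 and Gm5422 and so outside the selection, had 0.40, 0.32 and 0.02 on A1 to A3, and -0.55 and 0.18 on B1 and B2. It had the opposite sign on A3 and B2. Psmd4 had 0.65, 0.66 and -0.10 on the A arrays, and 0.46 and 0.08 on the B arrays, for a mean of 0.27 ± 0.005 (adjusted p = 0.471). That SD is between preparation means, after orientations were averaged, and hides the spread of its array values from -0.10 to 0.66. Psmd1, the other scaffold subunit, had a probe but no value on any array.

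The lid holds Psmd14, the metalloprotease that cuts ubiquitin chains off the substrate, and structural subunits such as Psmd11. Psmd14 had 0.62, 0.87 and -0.28 on A1 to A3, and 0.06 and -0.12 on B1 and B2, for a mean of 0.10 ± 0.18 (adjusted p = 0.813). It was below 0 on both Cy5 arrays and above 0 on the 3 others. Psmd11 had 0.32, 0.20 and 0.14 on the A arrays, and -0.09 and -1.13 on the B arrays, for a mean of -0.21 ± 0.57 (adjusted p = 0.659). Its probes differed on B1, at 0.09 and -0.27, and on B2, at -0.53 and -1.74. The sign of its mean was not stable, with 0.06 without B2 and 0.03 for the complete probe alone. Of the untested lid genes, Psmd7, the partner of Psmd14, had 0.01, 0.21 and -0.04 on the A arrays. Psmd8 had 0.50, 0.01, 0.07 and -0.20 on A1, A2, A3 and B1, Psmd13 had 0.13, 0.61 and 0.11 on A1, A2 and B1, and Psmd6 had 0.08 and -0.53 on B1 and B2.

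Psmd5, a chaperone that helps to assemble the ATPase base and is not retained in the finished cap, had the lowest mean of the tested members. Its values were -0.45, -0.38 and -0.38 on A1 to A3, and -0.56 and -0.75 on B1 and B2. The mean was -0.53 ± 0.18, or 0.69-fold (95% interval 0.51 to 0.95), with a limma adjusted p of 0.158. Both of its probes were below 0 on each array where they had a value, between -0.81 and -0.38 for one and between -0.69 and -0.27 for the other. Psmd5 was thus the member with the most even values on the lower side, although it did not pass. Psmd10, another assembly chaperone known as gankyrin, had -0.43 on B1 alone.

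The comparison between preparations asked whether the members differed between A and B. By limma on the 5 arrays with a dye term, 0 of 18 members did at an adjusted p under 0.05, where 0.0204% of all features did. At an unadjusted p under 0.05 there was 1, Psmd2 (5.56%), beside 330 features (6.75%). The means of A lay above those of B in 16 of 18 members, 8 of 9 in the core and 8 of 9 in the cap, beside 50.1% of all features; the exceptions were Psma6 and Psmc2. In 6 members every A array lay above every B array (33.3%, beside 12.5% of all features), namely Psma1, Psma4, Psmc4, Psmd2, Psmd5 and Psmd11. In 0 members did every B array lie above every A array, beside 11.8% of all features. The median of the members was 0.28 in A and -0.12 in B, while that of all features was -0.02 in both. The largest difference was that of Psmd2, 1.40 (95% interval 0.59 to 2.21; adjusted p = 0.459). Arrays were the replicates in this fit, so its p-values and interval measure the spread between arrays, not between repeats of a preparation. With 1 array left out, A lay above B in 16 of 18 members without A1, 14 of 17 without A2 and 18 of 22 without A3. The count was 12 of 18 without B1 and 15 of 19 without B2. Over all features, A lay above B in 47.3% (without A3) to 51.3% (without B1). In 4 of the 21 members with at least 2 arrays in each preparation, Psmb3, Psmb6, Psmc4 and Psmd11, every A array was above 0 and every B array below it, beside 3.46% of all such features. The reverse was found in 0 members and in 3.23% of features. For Psmd11 the split held for the mean of its 2 probes, of which 1 had 0.09 on B1. Psmb3 and Psmb6 had no value on A3, so their split rests on 4 arrays. As the members were measured on the same arrays, these counts are not counts of independent observations.

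**Figure D3:**
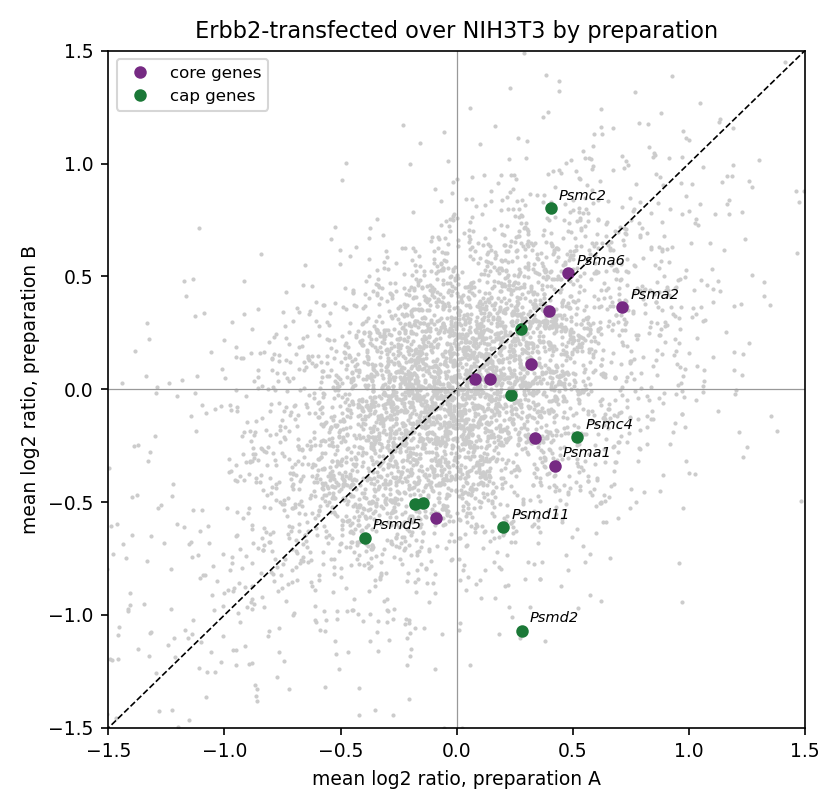
Mean log2 ratio in preparation A (x axis) against preparation B (y axis), with tested core genes in purple, tested cap genes in green and all 4892 tested features in grey; 115 features lie outside the plotted range. The dashed line marks equal values, and 16 of the 18 members lie below it, with Psmd2 farthest from it.

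A dye effect, the difference between arrays with Erbb2 cDNA in Cy5 and those with it in Cy3, passed for 0 of 18 members, beside 0.593% of all features in limma. At an unadjusted p under 0.05 there were 2, Psmc1 and Psmd2 (11.1%), beside 645 features (13.2%). The effect was below 0 in 8 of 9 cap members, 4 of 9 core members and 54.9% of all features. On A3 and B2, the Cy5 arrays, the cap median was -0.19 and -0.75, against 0.33, 0.79 and -0.09 on A1, A2 and B1. Core medians did not show this split, with 0.44 and 0.04 on the Cy5 arrays, against 0.27, 0.28 and 0.11 on the Cy3 arrays. The largest were those of Psmc1 at -1.14 (95% interval -1.98 to -0.31; adjusted p = 0.230) and Psmd2 at -0.97 (adjusted p = 0.284). No dye effect was estimated for the untested members, some of which, such as Psma5 and Psmd13, had values in the Cy3 orientation only.

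Members had values more often than other genes. Of the 34 member probes, 18 (52.9%) had a value on all 5 arrays, beside 17.1% of the 11723 probes with 1 gene symbol. The share was 79.4% beside 30.8% on A1 and 61.8% beside 37.8% on A3, and the difference was smallest on B1, at 94.1% beside 87.0%. No label states the rule by which values were left empty. Spot intensities were not analysed here, so levels of the subunits cannot be compared with each other.

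**Figure D4:**
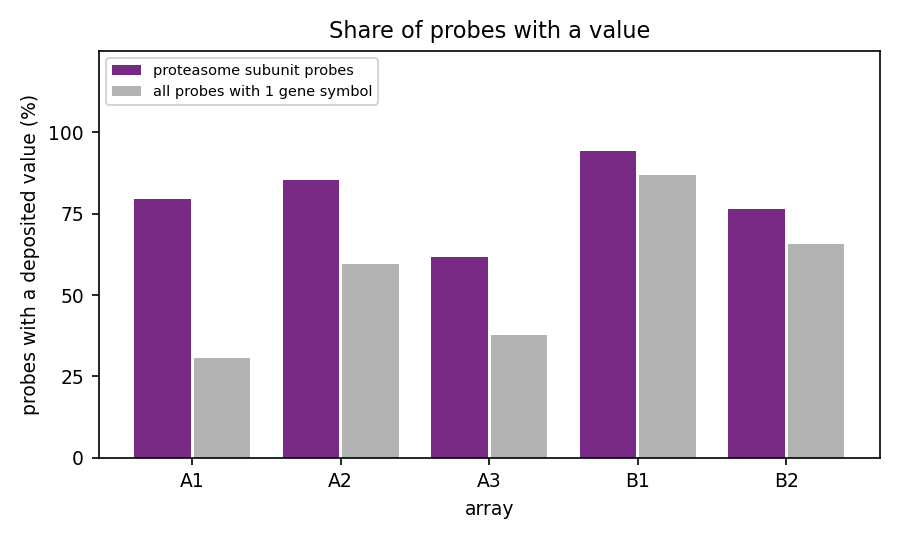
Share of probes with a deposited value (y axis, percent) on each array (x axis), for the 34 proteasome subunit probes (purple) and for all 11723 probes with 1 gene symbol (grey). The purple bar is the higher one on each of the 5 arrays, from 61.8% on A3 to 94.1% on B1.

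Of 44 other genes of the proteasome pathway that were listed by function, 25 had a value and 8 were tested. Of these 8, 0 rose and 0 fell in limma, where 6.79% of all features passed. Only Psmg1 had an unadjusted p under 0.05, as did 22.9% of all features. Psmg1, a chaperone that pairs alpha subunits during core assembly, had -1.41, -1.36 and -0.31 on A1 to A3, and -0.44 and -0.38 on B1 and B2. It was below 0 on every array, with a mean of -0.63 ± 0.31 and an adjusted p of 0.109. Nfe2l1, which activates proteasome genes when the proteasome is impaired, had -1.65, -0.24 and -0.77 on the A arrays, and 0.15 and -0.14 on the B arrays (mean -0.43 ± 0.61, adjusted p = 0.328). Nploc4, a cofactor of the unfoldase Vcp, had a mean of 0.43 ± 0.17 (adjusted p = 0.244), and Ubqln1, a shuttle factor, had -0.17 ± 0.15 (adjusted p = 0.678). Psmf1, an inhibitor of the core, had 0.15 ± 0.13 (adjusted p = 0.717), and Psmb10, an inducible catalytic subunit, -0.22 ± 0.18 (adjusted p = 0.564). Ecpas and Txnl1, which bind the assembled proteasome, had -0.02 ± 0.07 and -0.13 ± 0.34. These SDs are between preparation means and hide wider array values. Arrays ranged from -0.37 to 0.99 for Nploc4, -0.65 to 0.34 for Ubqln1 and -0.40 to 1.00 for Psmf1. The ranges were -1.09 to 0.16 for Psmb10, -0.40 to 0.44 for Ecpas and -0.42 to 0.33 for Txnl1.

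Marker genes of fibroblasts and of other cell types were looked up as a check of the label. Of 8 fibroblast markers, 5 were tested and 3, Col1a1, Col1a2 and Fn1, fell, with means of -4.93, -3.97 and -4.61. The other tested fibroblast markers did not pass, Vim with a mean of 0.47 (above 0 on all 5 arrays; adjusted p = 0.218) and S100a4 with -0.01 (adjusted p = 0.978). Of 22 markers of epithelium, endothelium, leukocytes, adipocytes and muscle, 3 were tested and 0 passed, Krt19 at 0.19, Flt1 at 0.16 and Tnnt3 at 0.21. A ratio does not show whether a marker is expressed, so the label could be checked only in this way.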

How the data were processed

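Per the labels, mean spot intensities from a GenePix scanner were background-subtracted by the authors and scaled to a median ratio of 1 on each array. The deposited values were read as log2 ratios of both dyes. The base was checked by undoing the scaling: 11.3% (B1) to 49.8% (A2) of values gave quotients of integers up to 300 in base 2 (tolerance 6e-07), and at most 2.48% on any array did so as natural logarithms. Arrays with Erbb2 cDNA in Cy3 (A1, A2 and B1) were turned in sign, with Cy5 taken as numerator because it is the first channel in the labels. Per array, probes sharing a single symbol were averaged, and other probes were kept apart. Entrez identifiers of 11590 of the 11723 probes were found in a gene table of GRCm38.p6, and 0 symbols changed.

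Per preparation, arrays of each dye orientation were averaged and then both orientations. For the 4892 features measured in each orientation of A and of B, limma 3.58.1 (R 4.3.3; lmFit, eBayes) tested whether the 2 preparation means differ from 0, with Benjamini-Hochberg adjustment at 0.05. Preparation (A minus B) and dye (Cy5 minus Cy3) were tested on the 5 arrays in one model. Precision is limited by the small number of arrays. The fits were checked on simulated data with known changes.

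Every member is named, and of other pathway genes those past the threshold and up to 2 per list with the largest absolute ratio. The members and lists were chosen with earlier results of these data known. The counts of members on 1 side of 0 or of preparation B, and the motifs, were added after values were seen. Of the listed subunits, Psma3, Psma8, Psmd3, Psmd9 and Psmd12 were not among the selected probes and were not analysed here. Alternatives covered replication unit, dye term, centring, scaling, missing values, probe summary, variance, threshold, direction and leaving out each array. Figures were drawn with matplotlib 3.10.9.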

Additional observations from a re-analysis of the deposited data

Results flagged for a closer look

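A single array stood apart in 2 of the 22 members with 4 or 5 values, by a rule with a nominal chance rate of about 5% of groups. The share over all features was not computed, so no excess among the members can be read from this count. Psmc6 had -1.01 on B2, against -0.24 to -0.01 on the other arrays. Psmd11 had -1.13 on B2, against -0.09 to 0.32 elsewhere.

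In 4 of 21 members every array of preparation A was above 0 and every array of preparation B below it. Among all features with at least 2 arrays in each preparation this held for 3.46%. Psmd11 is among the 4 by the mean of its 2 probes, of which 1 had 0.09 on B1. By plain means over arrays, A minus B was 0.73 for Psmc4 (0.52 in A and -0.21 in B) and 0.83 for Psmd11 (0.22 in A and -0.61 in B). With a dye term, limma gave differences of 0.72 for Psmc4 (adjusted p = 0.815) and 0.74 for Psmd11 (adjusted p = 0.773). The plain difference was 0.60 for Psmb3 (0.29 in A and -0.31 in B) and 0.41 for Psmb6 (0.25 in A and -0.15 in B), for which the difference was not tested. Neither gene had a value on A3, so its A mean is from the Cy3 orientation only and its B mean from both. Preparation and dye orientation are thus mixed in these 2 differences.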

How the results depend on the processing

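No member passed under any alternative except 1 probe of Psmc1, called when every probe was its own feature (members called: 1). The smallest adjusted p of a member otherwise was 0.0504, for Psma2 on 5 arrays with preparation as a random block. With Cy3 as numerator all 18 members turned sign, so that Psma2, Psma4, Psma6, Psmb7 and Psmc2 had -0.54, -0.22, -0.50, -0.37 and -0.60, and Psmc6 and Psmd5 had 0.35 and 0.53. These 7 genes had 1 sign on every array, so any mean over fewer of these arrays must keep it. That they kept their sign under the other alternatives was thus largely set in advance and is no separate check. Under those alternatives, 8 of 304 member values had the other sign, in 5 genes. These were Psma1 without A3 (-0.16) and without B1 (-0.01), Psma7 without A3 (-0.12), Psmb1 without A3 (-0.01) and without B1 (-0.10), Psmc1 without A3 (0.05), and Psmd11 without B2 (0.06) and with complete probes only (0.03). The medians of core and cap (reported values 0.09 and -0.21) moved by less than the spread between preparations, although the cap median changed sign. With 1 array left out, the cap median ranged from -0.47 without B1 to 0.16 without A3. Leaving out A3, B1 or B2 left 1 preparation with a single dye orientation. Intervals between -1 and 1 were found for 9 of 18 members without B1 (54.8% of all features) and 18 of 19 without B2 (75.8%).

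Features called numbered 332, and 509 with preparation as a random block, 196 after scaling, 149 with a value on at least 1 array of each preparation, 564 with only probes complete over orientations and preparations, 544 with every probe apart, 92 with trend and robust settings, 548 at an adjusted p under 0.10, and 198 to 498 with 1 array left out. For preparations 1 feature was called, and 1 to 25 with 1 array left out; for dye 29, and 0 without B1 (344 at an unadjusted p under 0.05) to 256 without A1. Each left-out array also changed the features tested, from 2920 to 8074. Otherwise the cause of these changes was not tested.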
